A study of Homo sapiens with 6 samples.

Results

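The genes described here were 42 genes of DNA repair and of the DNA damage checkpoint, taken by name and role from a list that was drawn up with earlier results of these data known, out of 19970 protein-coding genes of GENCODE v44 on chromosomes 1 to 22 and X. By role, 14 belong to homologous recombination, 11 to the Fanconi anaemia pathway, 6 to checkpoint signalling, 6 to DNA end processing and unwinding, and 5 to mismatch repair, single-strand break repair and lesion bypass. Each gene was scored by the ChIP-seq peaks within 1 kb of any of its annotated transcription start sites (TSSs).

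The study worked in MDA-MB-231, an established human triple-negative breast cancer cell line, and asked how the transcription factor E2F1 and the histone methyltransferase EZH2 meet on chromatin. The E2F1 libraries came from untreated cultures, from a 72 h DMSO (solvent) culture and from a culture kept for 72 h in 1 µM GSK126, an inhibitor of the EZH2 enzyme. H3K27me3, the repressive mark that EZH2 writes, was profiled after lentiviral transduction for 24 h, with either a control shRNA or one that targets E2F1 (shE2F1), and 72 h of selection in puromycin at 2 µg/ml. There was 1 library per condition, all from the same cell line, so no difference between conditions could be tested against replicate error, and the intervals below cover counting error in the libraries alone. The peak lists hold no RNA or protein level, so the depth of the E2F1 knockdown was not measured here. An untreated input library had no processed file here and was not analysed.

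E2F1 is the founding member of the E2F family, which binds promoters of genes needed to enter and pass through S phase, and which the retinoblastoma protein holds in check until late G1. Many proteins of DNA replication and repair are made in step with the cell cycle through such promoters. Homologous recombination copies an intact sister chromatid to mend a broken one, the Fanconi anaemia pathway frees DNA strands that are crosslinked to each other, and the checkpoint kinases ATM, ATR, CHEK1 and CHEK2 halt the cycle while repair proceeds. H3K27me3 is best known from broad domains over silenced developmental genes, and active promoters usually lack it.

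The E2F motif was a fixed word of 7 letters, sought within 100 bp of summits that lay within 1 kb of a TSS. Its length was therefore set in advance, and its place near a TSS is favoured by the search. The sequences below are 30 bases of GRCh38 around the E2F motif nearest the E2F1 summit of the GSK126 library, shown for 7 of the 8 genes with the highest fold in untreated cells and read 5′ to 3′ on the strand given, with the motif in capitals. The eighth, UBE2T, had no motif within 100 bp of its summit in any library.
MDC1, chr6:30717537-30717566, plus strand: ccaccacccacTTCCCGCgcagttccaaac
BLM, chr15:90717357-90717386, plus strand: tgagccagggcTTGGCGCggcggccgtggt
MSH6, chr2:47783138-47783167, plus strand: tccccccagatTTCCCGCcagcaggagccg
RAD54L, chr1:46247628-46247657, plus strand: gcgcagcactaTTCCCGCctcttccttggg
USP1, chr1:62437043-62437072, minus strand: ccgaggggaacTTGGCGCgttttcctcagt
RAD51D, chr17:35119801-35119830, plus strand: atccgccgggaTTCCCGCgcccagagcccg
CHEK1, chr11:125625948-125625977, minus strand: atgcagcgcttTTCCCGCcaaaacttgagg
A second set was chosen after the values were seen, as 5 of the 7 genes that had DMSO and GSK126 peaks, no untreated peak and a motif at the GSK126 summit. The other 10 of these 17 genes had no motif there, against 5 of the 24 genes with an untreated peak.
BRCA1, chr17:43125394-43125423, plus strand: tttatctgtaaTTCCCGCgcttttccgttg
BRCA2, chr13:32315868-32315897, plus strand: tgggtctccatTTCCCGCctccggcccggc
BARD1, chr2:214809662-214809691, plus strand: cggccaagctcTTCCCGCgtctgggacggc
FANCD2, chr3:10026423-10026452, minus strand: agttttcgactTTCCCGCcaggcccgacgc
FANCL, chr2:58241406-58241435, minus strand: cctccaggatcTTCCCGCcaaggctggggt

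The motif was searched on both strands in 4 spellings, namely TTCCCGC as the first, then TTCGCGC as the second, then TTGCCGC as the next, and TTGGCGC as the last. It lay within 100 bp of the strongest E2F1 summit at 17 of the 24 genes with a peak in untreated cells, where 56.1% of all protein-coding genes with such a peak had it. In DMSO it was found at 25 of 41 genes, against 37.4%, and in GSK126 at 27 of 42, against 32.3%. With a further T required before the motif, the GSK126 count was 10 of 42, against 9.05%. Within 100 bp of the canonical TSS, a window that does not depend on any peak, 21 of the 42 genes held the motif, against 12.3% of all protein-coding genes. In the RefSeq promoter table of GRCh38.p14, in which 39 of the 42 symbols matched, 32 of 56 promoters of these genes held it, against 12.97% of 35116 promoters. TTCCCGC was the nearest spelling at 21 of the 27 genes in GSK126. The motif sat a median of 10 bp from the summit and within 30 bp of it at 22 of those 27 genes. A match is a description of the sequence and was not tested for binding.

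**Figure D1:**
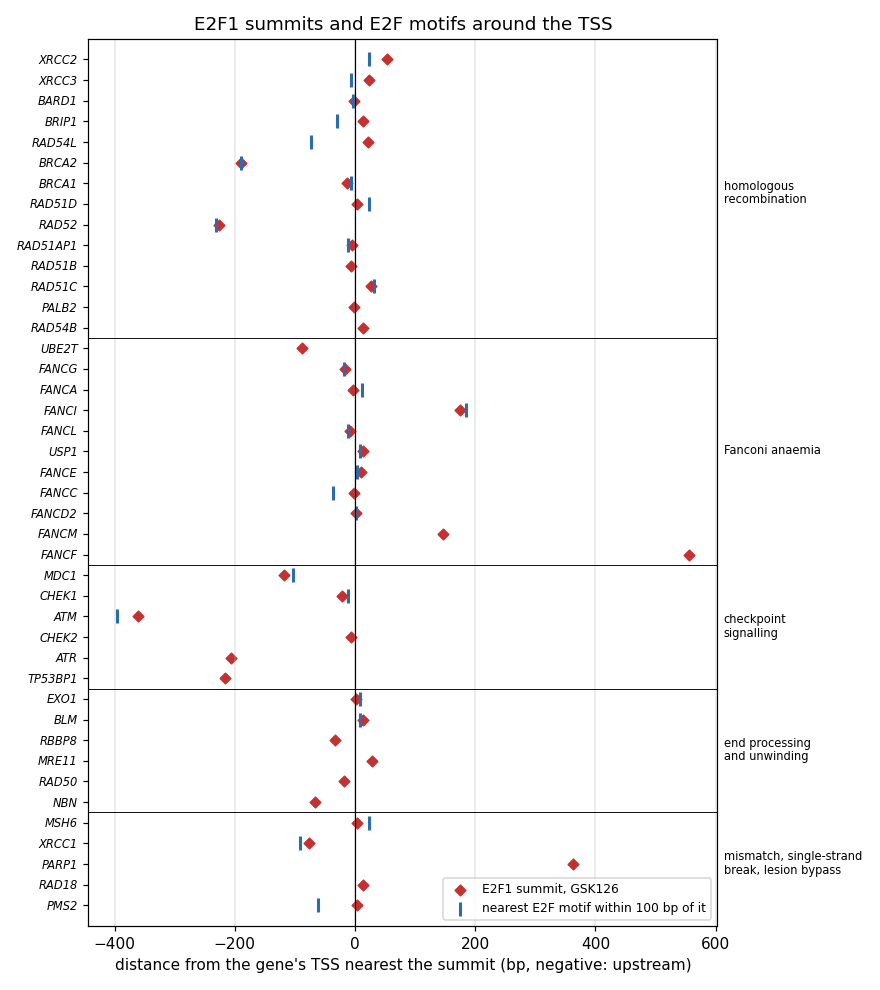
Distance in bp of the strongest GSK126 E2F1 summit (diamonds) and of the nearest E2F motif within 100 bp of it (ticks) from the gene's TSS nearest the summit, for the 42 genes by role, with negative values upstream. Most summits lie close to 0, at a median distance of 17.5 bp, and 27 genes have a tick, most of them next to the diamond. Only summits within 1 kb of a TSS were joined to a gene.

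The summits themselves lay near a TSS, which the joining rule favours. Only summits within 1 kb of a TSS were joined, and a median of 16.5 TSSs per gene, against 5, can shorten the distance to the nearest. The same distances over all protein-coding genes were not computed. In GSK126 the distance from the nearest TSS of the gene was at most 50 bp for 28 of 42 genes and at most 100 bp for 32, with a median of 17.5 bp and a largest value of 555 bp at FANCF. By GENCODE annotation of the gene itself, 23 of these summits lay in an untranslated part of an exon, 4 in a coding exon, 8 in an intron and 7 upstream of the gene. The summits of separate libraries had a median distance of 14 bp between DMSO and GSK126 over 41 genes and of 24.5 bp between untreated and DMSO over 24 genes. They were within 100 bp of each other at 34 of the 41 and at 19 of the 24. The largest distance was 372 bp at FANCI, between untreated and GSK126, and the summits of FANCC, BRIP1, MRE11, RAD50, NBN, TP53BP1, USP1 and FANCM also moved by 110 to 361 bp between a pair of libraries.

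E2F1 peaks marked nearly the whole set. In untreated cells 24 of the 42 genes had an E2F1 peak, against 5.85% of all protein-coding genes. In DMSO 41 of 42 had one, against 33.5%, and in GSK126 all 42 of 42, against 51.5%. These genes have more annotated TSSs than most, a median of 16.5 against 5, which gives each more chances to be hit. Among the 33 of them with at least 10 TSSs, 20 had an untreated peak, 32 a DMSO peak and 33 a GSK126 peak, where the shares among all genes with at least 10 TSSs were 8.62%, 48.9% and 71.7%. With 1 canonical TSS per gene the counts were 24, 40 and 41 of 42, against 5.28%, 30.6% and 47.9% of all genes. The list for untreated cells is short, 1056 peaks against 15703 and 14276, and its background is thin, with 0.668 fragments at its lowest against 1.82 in DMSO and 1.70 in GSK126. When the DMSO and GSK126 lists were cut to their 1056 strongest peaks, 31 and 29 of the 42 genes still had one, against 5.94% and 5.98% of all genes.

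**Figure D2:**
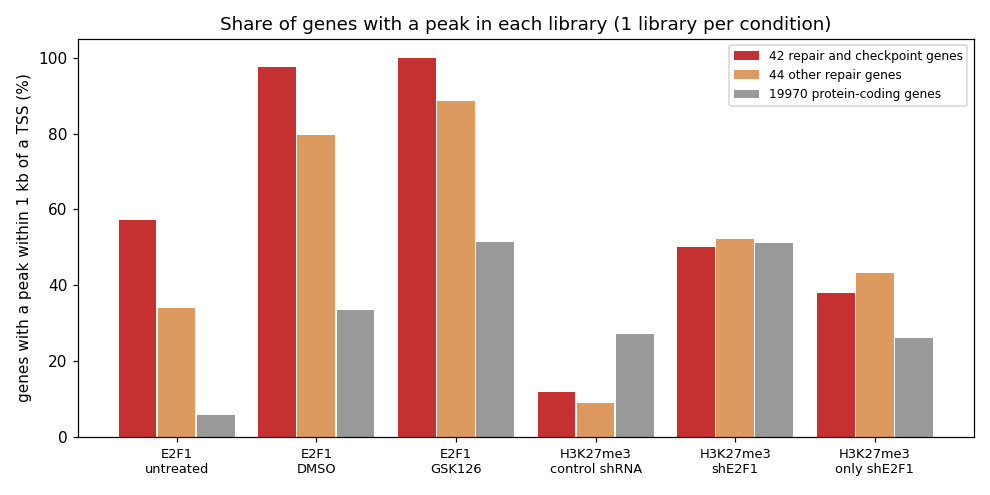
Percentage of genes with a peak within 1 kb of a TSS in each of the 5 peak lists, and with H3K27me3 in shE2F1 but not in control shRNA, for the 42 genes, for 44 other repair genes and for all 19970 protein-coding genes, with 1 library per condition and therefore no error bars. The 42 genes stand above all genes for E2F1 in every library, and reach 50.0% against 51.2% for H3K27me3 in shE2F1.

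The peaks at these genes were also tall in DMSO and GSK126, while in untreated cells their median fold was close to that over all genes. The median fold enrichment, the ratio that MACS2 gives of fragments at the summit over the local background, came to 9.08 for untreated cells, 15.0 for DMSO and 24.2 for GSK126. The medians over all protein-coding genes with a peak were 8.28, 6.03 and 7.78. The number of fragments over the summit, which fold and p-value together give back as a whole number, had medians of 24.5, 88 and 140.5 against 19, 30 and 38.

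By role, untreated peaks were found at 5 of 6 genes of end processing and unwinding, 4 of 6 of checkpoint signalling, 7 of 11 of the Fanconi anaemia pathway, 7 of 14 of homologous recombination and 1 of 5 of mismatch, single-strand break repair and lesion bypass. The share over all protein-coding genes was 5.85%, and no test was made between these small groups.

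MDC1, the scaffold that binds phosphorylated H2AX and gathers checkpoint proteins at a break, had the highest fold of the set in all 3 E2F1 libraries. Its summit in GSK126, at position 30717565 of chromosome 6, lay 118 bp upstream of its nearest TSS and 130 bp from a TSS of TUBB, which is transcribed the other way, so the peak cannot be given to either gene alone. The untreated, DMSO and GSK126 folds were 37.6, 46.6 and 75.5, which ranked 3, 10 and 11 among all protein-coding genes with a peak. Its summit was covered by 98 fragments without treatment (95% Poisson interval 79.6 to 119), 329 after DMSO (294 to 367) and 538 after GSK126 (493 to 585). The libraries differ in depth, so these numbers cannot be compared directly. Divided by the lowest background of its own library the values were 147 (119 to 179) in untreated cells, 181 (162 to 202) in DMSO and 316 (290 to 344) in GSK126. The untreated and DMSO intervals overlap on this scale.

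CHEK1, the kinase that ATR switches on at stalled forks, came next among the checkpoint genes, with untreated, DMSO and GSK126 folds of 11.6, 22.4 and 34.9 and a summit in a coding exon 22 bp upstream of its nearest TSS. ATM, the kinase that answers double-strand breaks, had folds of 6.30, 14.9 and 31.2, with a GSK126 summit 361 bp upstream of its own nearest TSS and 45 bp from a TSS of NPAT, a gene of histone expression on the other strand. CHEK2, which ATM activates, had no untreated peak and folds of 14.4 in DMSO and 23.9 in GSK126. In DMSO and GSK126 the lowest folds of the group were at ATR and TP53BP1. ATR, the kinase of single-stranded DNA, had folds of 6.60, 3.29 and 9.17. TP53BP1, which shields broken ends from resection, had no untreated peak and folds of 3.72 and 5.50, with a GSK126 summit 14 bp from a TSS of MAP1A and 216 bp from its own. Checkpoint genes therefore spanned the range of the whole set, from 5.50 to 75.5 in GSK126.

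In the Fanconi anaemia pathway the highest folds of untreated cells were at the enzymes that add and remove ubiquitin. UBE2T, the conjugating enzyme that ubiquitinates FANCD2 and FANCI, had folds of 19.4, 26.0 and 57.7 and 67, 226 and 470 fragments, the second largest numbers of the set in all 3 libraries, at a summit 89 bp upstream of its nearest TSS. USP1, the enzyme that removes that ubiquitin, had folds of 13.0, 30.2 and 36.2. FANCL, the ligase of the same step, had no untreated peak but folds of 22.9 in DMSO and 39.3 in GSK126. The substrates FANCI and FANCD2 differed in untreated cells, with a fold of 5.56 at FANCI and no peak at FANCD2, while DMSO gave 33.6 and 13.4. The core complex genes FANCA, FANCC, FANCE and FANCG each had a peak in all 3 libraries, with GSK126 folds from 25.7 to 48.8. FANCF, of the core complex, and FANCM, the translocase that anchors it to DNA, had none in untreated cells and the lowest values of the pathway, 4.07 and 6.93 at FANCF and 4.52 and 7.62 at FANCM. The FANCF summit lay 241 bp from a TSS of GAS2 on the other strand and 555 bp from its own.

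**Figure D3:**
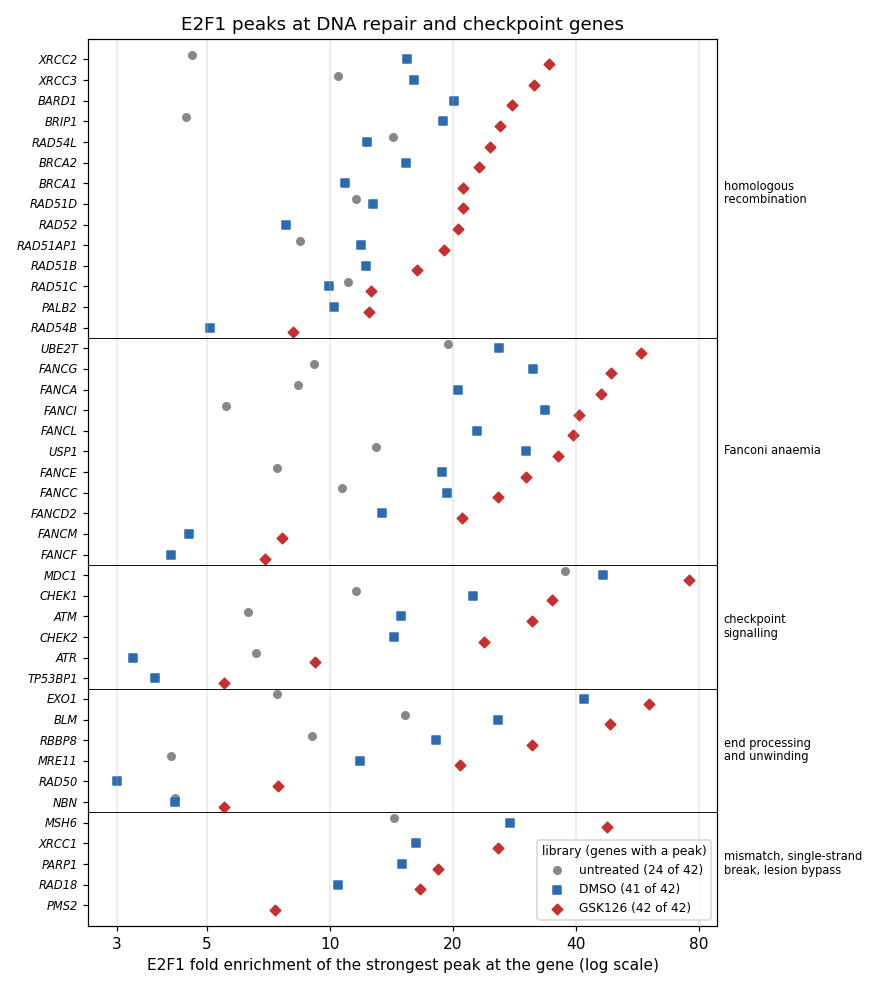
E2F1 fold enrichment of the strongest peak at each of the 42 genes on a log axis, by role, with 1 point per library (circles untreated, squares DMSO, diamonds GSK126) and no point where no peak was called. The diamond lies to the right of the square at every gene that has both, and MDC1 is highest in each library, up to 75.5 in GSK126.

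Among homologous recombination genes the DNA translocase RAD54L led in untreated cells, with a fold of 14.2, followed by RAD51D at 11.6, RAD51C at 11.1 and XRCC3 at 10.5. In DMSO and GSK126 RAD54L reached 12.3 and 24.6, and RAD51D 12.7 and 21.2. The breast and ovarian cancer genes BRCA1, BRCA2, BARD1 and PALB2 had no untreated peak. In DMSO they had folds of 10.9, 15.3, 20.1 and 10.2, and in GSK126 of 21.2, 23.2, 27.9 and 12.4. BRIP1, the helicase partner of BRCA1, did have an untreated peak, of 9 fragments and a fold of 4.44. XRCC2 had the highest GSK126 fold of this group, 34.5, after 4.60 and 15.4. RAD54B was lowest, with no untreated peak and 5.09 and 8.11.

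Of the genes that open and trim DNA ends, BLM, the helicase missing in Bloom syndrome, had folds of 15.3, 25.8 and 48.5. EXO1, the exonuclease of long-range resection, had 7.42 in untreated cells but 41.8 in DMSO and 60.4 in GSK126, where it ranked 16 and 45 among all genes. RBBP8, which encodes the resection factor CtIP, had 9.03, 18.1 and 31.3. The 3 subunits of the complex that first holds a broken end were unlike each other. MRE11, its nuclease, had 21, 82 and 137 fragments, whereas NBN had 11, 17 and 27 and RAD50 had no untreated peak, then 17 and 35. MSH6, of the mismatch recognition dimer, had folds of 14.3, 27.5 and 47.7. It was the only gene of its group with a peak in untreated cells. PARP1 and XRCC1, of single-strand break repair, had 15.0 and 16.2 in DMSO, and the lesion bypass ligase RAD18 had 10.5. PMS2, the nuclease subunit of mismatch repair, was the 1 gene of 42 without a DMSO peak, and its GSK126 peak was among the weakest, with a fold of 7.31, 25 fragments (16.2 to 36.9) and a TSS of AIMP2 174 bp away on the other strand. PMS2 has near-identical pseudogene copies, so its values are uncertain where reads could be split between copies.

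Genes with and without an untreated peak overlapped in their DMSO signal. The 17 genes with DMSO and GSK126 peaks and no untreated peak had 15 to 136 DMSO fragments, with a median of 55. The 24 with an untreated peak had 15 to 329, with a median of 103.5. The ranges thus overlapped, while the median was lower at the genes without an untreated peak. Scaled to the lowest background of the untreated library, the 136 DMSO fragments of FANCL correspond to 49.9, those of FANCD2 to 34.5, those of BRCA2 to 30.1 and those of BRCA1 to 21.3, while the untreated list holds summits of as few as 7 fragments. At the other end those of FANCF correspond to 5.51, those of RAD50 to 6.24, those of TP53BP1 to 6.61 and those of FANCM to 7.71, at or near that lowest number. Those of ATR and NBN correspond to 5.51 and 6.24 as well, yet both genes had an untreated peak, of 10 and 11 fragments. The part of depth in the absent peaks was not tested. At the 24 genes with both peaks the untreated value over the DMSO value, each over its own lowest background, had a median of -0.51 on the log2 scale, against -0.32 over the 1140 protein-coding genes with both. The counting interval lay below 0 at 10 of the 24, against 19.7% of those genes, and above 0 at none, against 1.32%. Such shares depend on how many fragments a summit holds, and were not computed among genes with as many. The highest values were at ATR, 0.86 (-0.46 to 2.11), and NBN, 0.82 (-0.42 to 2.00). RAD54L at 0.12 and BLM at 0.01 were near 0, whereas BRIP1 at -1.63, FANCI at -1.39 and USP1 at -1.28 were lower. The untreated and DMSO summits lay 240 bp apart at BRIP1, 109 bp at FANCI, 169 bp at USP1 and 117 bp at NBN. Untreated and DMSO cells also differ in peak number and background, and the part of the solvent was not tested.

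All 41 genes with both peaks had a higher fold in GSK126 than in DMSO. The log2 ratio of the folds had a median of 0.68 and ran from 0.26 at USP1 to 1.48 at ATR. Over all 6539 protein-coding genes with both peaks the median was 0.73, so the shift at these genes was close to that over all genes. With fragments over the lowest background in place of fold, the medians were 0.76 and 0.77. The counting interval of this fragment ratio lay above 0 at 34 of 41 genes, against 61.4% of all genes, and below 0 at none, against 0% of all genes. That share depends on how many fragments a summit holds. At 55 or more DMSO fragments it was 29 of 31 genes, against 93.6% of all genes with as many. Measured from the median of all genes instead of from 0, the interval lay above it at 4 of 41 genes, against 1.9% of all genes, and below it at 0 of 41, against 1.44%. These shares depend on fragment number too, with a median of 88 DMSO fragments at these genes against 30 at all genes with a DMSO peak. They were not computed among genes with as many fragments.

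**Figure D4:**
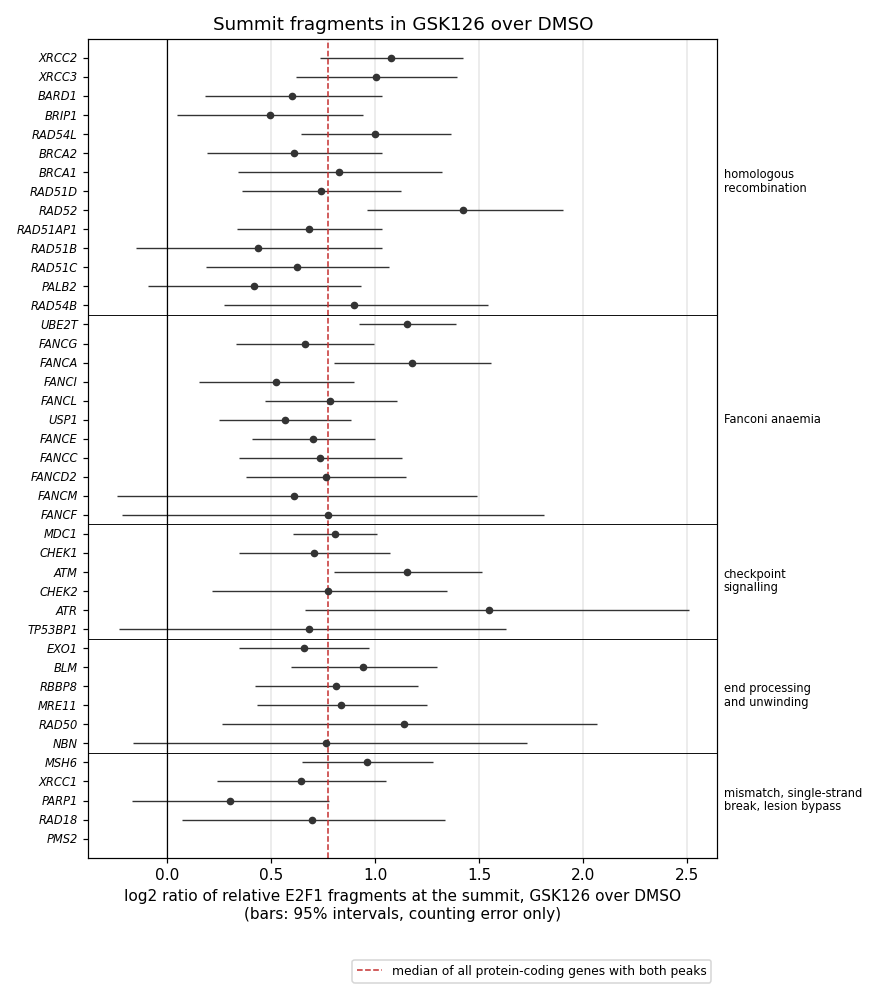
Log2 ratio of E2F1 fragments at the summit in GSK126 over DMSO, each divided by the lowest background of its library, for the 41 genes with both peaks, by role, with bars for 95% exact intervals of counting error. Points gather around the dashed line, the median of 0.77 over all protein-coding genes with both peaks, and the bars of RAD52, UBE2T, FANCA and ATM lie wholly to its right.

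RAD52, UBE2T, FANCA and ATM were the 4 genes whose whole interval lay above the median of all genes. RAD52, an annealing factor of recombination, had 55 fragments in DMSO and 138 in GSK126 and a log2 fragment ratio of 1.42 (0.96 to 1.90). The ratio was 1.15 (0.92 to 1.39) at UBE2T, 1.18 (0.80 to 1.56) at FANCA and 1.15 (0.80 to 1.52) at ATM. The 3 largest ratios of fold were those of ATR at 1.48, RAD52 at 1.39 and RAD50 at 1.31. ATR rested on 15 DMSO fragments (8.40 to 24.7) and 41 GSK126 fragments (29.4 to 55.6), and RAD50, an ATPase that tethers ends, on 17 and 35. The 3 smallest were USP1 at 0.26, FANCI at 0.28 and PALB2 at 0.28. Of these the fragment interval of PALB2, from -0.09 to 0.93, included 0. At USP1 and FANCI the fragment ratios were larger than the fold ratios, 0.57 and 0.53.

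H3K27me3 was uncommon at these genes under the control shRNA. A broad peak overlapped the promoter window of 5 of 42 genes, against 27.1% of all protein-coding genes, namely XRCC2, RAD18, CHEK2, RAD52 and FANCE. Under shE2F1 it overlapped 21 of 42, against 51.2%. The same 5 genes had it in both, 16 of 42 had it only under shE2F1, against 26%, and 0 of 42 had it only under the control shRNA, against 1.94%. Among genes with at least 10 TSSs the figure for shE2F1 only was 14 of 33, against 34.4%. With the 25174 strongest regions kept in each list, a setting added once the values were known, 15 of 42 genes had H3K27me3 only under shE2F1, against 19.0% of all genes. Keeping regions of −log10 q of 5 or more, it was 5 of 42, against 6.64%. The shE2F1 list is the longer of the pair, with 135683 regions against 123957. Its background, read from short regions whose fold and p-value gave a whole number of fragments, was most often 1.27 fragments against 1.02. The part of that depth in the count was not tested.

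By role, H3K27me3 appeared only under shE2F1 at 4 of 5 genes of mismatch, single-strand break repair and lesion bypass, 5 of 11 Fanconi anaemia genes, 3 of 6 genes of end processing, 2 of 6 checkpoint genes and 2 of 14 genes of homologous recombination. The share was 26% of all protein-coding genes. It was 42.9% of those with an untreated E2F1 peak and 43.5% of those with DMSO and GSK126 peaks only. The groups are small, and no test was made between roles. BRCA1, BRCA2, BARD1, PALB2, MDC1, ATM, UBE2T, FANCL, BLM and RAD54L were among the 21 genes with no H3K27me3 peak in either library. High E2F1 folds were found both with and without a new mark. In GSK126 MDC1 at 75.5 and UBE2T at 57.7 had no mark, while EXO1 at 60.4 and FANCG at 48.8 were marked only under shE2F1.

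**Figure D5:**
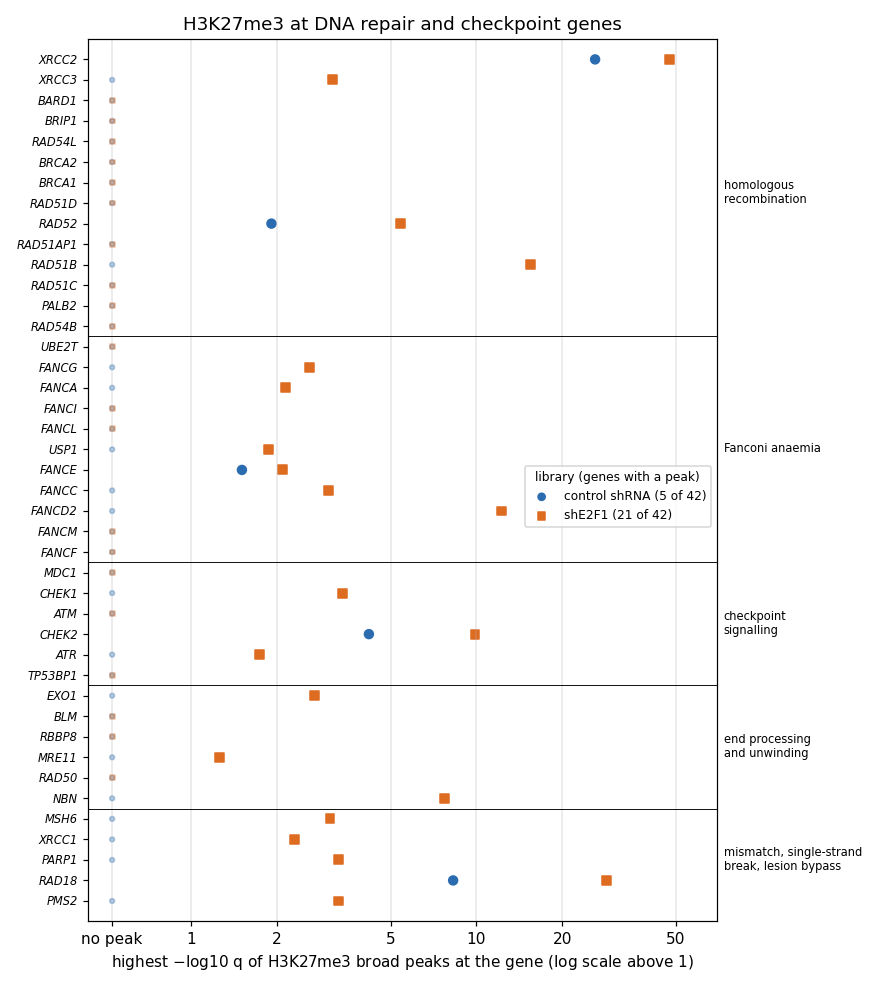
Highest −log10 q of the H3K27me3 broad peaks at each of the 42 genes, by role, under the control shRNA (circles) and shE2F1 (squares), with 1 library each, a log axis above 1 and small pale markers where no peak was called. The square lies to the right of the circle at all 5 genes that have both, a count not made over all genes. A square alone is seen at 16 genes.

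The 5 genes marked in both libraries were higher under shE2F1 each time, though with 1 library per condition this has no replicate check. The same count over all protein-coding genes marked in both was not made. The background was also higher under shE2F1, most often 1.27 fragments against 1.02, and its part in the rise was not tested. Fold and −log10 q of a broad peak are averages over its length, so no fragment count or interval can be given. XRCC2 had the highest −log10 q values of the set, 26.1 under the control shRNA and 47.5 under shE2F1, with folds of 8.97 and 11.2. Its peak was 269 bp wide under the control shRNA and 755 bp under shE2F1. The untreated and DMSO E2F1 summits lay inside both regions, and the GSK126 summit lay inside the wider one and 11 bp outside the other. RAD18 had folds of 6.44 and 12.1, with −log10 q of 8.29 and 28.6. Its peaks, of 235 and 335 bp, covered the DMSO and GSK126 E2F1 summits in both libraries. CHEK2 had folds of 4.84 and 6.70 over 189 and 440 bp. At RAD52 the mark, with folds of 3.26 and 4.72, lay at another promoter of the gene, 40888 bp from the strongest E2F1 summit. A second, weaker E2F1 peak of RAD52 in DMSO, with a fold of 5.33 and 22 fragments, had its summit at position 990896 of chromosome 12, inside both of these H3K27me3 regions, and no GSK126 peak was called there. At FANCE, with folds of 2.48 and 2.73, it ended 958 bp short of the GSK126 summit. The median width at these 5 genes was 235 bp under the control shRNA, against 780 bp over all protein-coding genes with a peak there. Under shE2F1 it was 677 bp at the 5 genes. At all 21 genes of the set with a shE2F1 peak it was 440 bp, against 670 bp over all protein-coding genes with one. At the 16 genes marked only under shE2F1 it was 402 bp.

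Among the 16 genes marked only under shE2F1, the −log10 q ran from 1.26 at MRE11 to 15.5 at RAD51B. RAD51B had a fold of 7.42 over 500 bp at chr14:67819490-67819989, and FANCD2 a fold of 5.66 and −log10 q of 12.2 over 326 bp at chr3:10026317-10026642. Both regions covered the E2F1 summit, and neither gene had an E2F1 peak in untreated cells. NBN followed with 5.43 and 7.72, its region holding the untreated and DMSO summits and ending 33 bp from that of GSK126. CHEK1 with a −log10 q of 3.39, PMS2 with 3.29 and PARP1 with 3.27 were next. The GSK126 E2F1 summit lay inside the new region at 12 of the 16 genes, against 63.2% of all genes marked only under shE2F1 that had a GSK126 peak. It lay inside or within 50 bp of the region at 14, against 71.1% of those genes. The other 2 were PARP1, at 267 bp, and MRE11, at 315 bp. For DMSO summits the count inside was 12 of 15, against 63.1%, and for untreated summits 9 of 11, against 62.7%.

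Genes with and without E2F1 in untreated cells were among those marked only under shE2F1. Such regions were found at 11 of the 24 genes with an untreated E2F1 peak, against 42.9% of all protein-coding genes with such a peak. Of the 17 bound in DMSO and GSK126 only, 4 had one, against 43.5% of all genes bound in that way. PMS2, bound in GSK126 only, was the remaining gene. The 16 genes had a median GC content of 60.2% within 500 bp of the canonical TSS, against 57.1% at the 21 genes with no H3K27me3. Over all protein-coding genes the share marked only under shE2F1 rose with GC content, from 11.3% in the lowest of 4 bins of nearly equal gene number to 39.7% in the highest, and at the 42 genes it was 2 of 9 in the lowest bin, 7 of 21 and 4 of 8 in the middle ones and 3 of 4 in the highest. The part of base composition in the count was not tested. The E2F1 summits of the 16 and the 21 genes held medians of 146 and 117 fragments in GSK126.

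At 16 of the 42 genes a TSS of another protein-coding gene lay within 1 kb of the E2F1 summit, at 15 of them on the opposite strand, and at 24 when genes of every kind were counted. Such pairs include BRCA2 with ZAR1L, PALB2 with DCTN5, RAD51AP1 with C12orf4, CHEK2 with HSCB, MRE11 with ANKRD49 and XRCC1 with PINLYP. The summit was nearer the neighbour at 3 genes, FANCF, ATM and TP53BP1. Values at these promoters belong to both genes. The same counts over all protein-coding genes were not made, so shared promoters cannot be called a trait of this set.

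A second list of 44 repair genes, which covers nucleotide excision, base excision, end joining, other mismatch genes, damage signalling and crosslink repair, gave a milder picture. The untreated, DMSO and GSK126 lists had an E2F1 peak at 15, 35 and 39 of the 44, with median folds of 9.38, 9.22 and 13.4. Within it 8 of 12 damage signalling genes had an untreated peak, but 1 of 11 nucleotide excision genes and 0 of 5 crosslink repair genes. H3K27me3 was at 4 of 44 genes under the control shRNA and 23 under shE2F1, 19 of them only there and 0 only under the control shRNA. For H3K27me3 the lists were thus close, with 16 of 42 and 19 of 44 marked only under shE2F1, and for E2F1 in untreated cells they stood at 24 of 42 and 15 of 44. No test was made between them.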

How the data were processed

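The ChIP-seq peak lists of 5 libraries were analysed, 3 for E2F1 and 2 for H3K27me3, with 1 library per condition. Per the study's methods, chromatin was sonicated for E2F1 and digested with micrococcal nuclease for histone ChIP, although the labels name sonication for the libraries. Reads of 150 bp were sequenced in pairs. The submitters' processing notes name FastQC 0.11.5, cutadapt 4.5, Bowtie2 2.5.2, Picard, SAMtools and MACS2 2.2.9.1, with build GRCh38. The authors called narrow peaks for E2F1 at q of 0.01 and broad peaks for H3K27me3 with a broad cutoff of 0.1. The control library given to MACS2 is not given in the sources used here. Duplicate handling is likewise not given.

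In the files the authors deposited, the fold enrichment is a linear ratio of fragments over local background with a pseudocount of 1. In the same files p and q are deposited as −log10 values. The deposited display score, an integer made from q, was not used. Values of a broad peak are averages over its length. Total reads are not in these files, so depth is known only from the background.

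Peaks were joined to GENCODE v44 genes with Python 3.11.15, pandas 2.3.3 and pysam 0.24.0. An E2F1 peak belonged to a gene when its summit lay within 1000 bp of any TSS, and an H3K27me3 peak when it overlapped that window. The strongest peak by fold stood for the gene. Fragments and background at each E2F1 summit were solved from fold and p-value (scipy 1.17.1), and came out whole within a relative tolerance of 2e-05 for all 1056, 15703 and 14276 peaks. Ratios carry exact 95% Clopper-Pearson intervals conditional on the sum of fragments. PCR copies are not independent molecules, so all intervals cover counting error only. The solver and the joins were tested on simulated data. No p-value between conditions was computed.

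The genes and lists were chosen with earlier results of these data known. Genes named with values were the 8 with the highest untreated fold, those lacking an E2F1 peak in DMSO or GSK126, those with H3K27me3 under the control shRNA, the 6 highest −log10 q among those marked only under shE2F1, and the 3 highest and 3 lowest ratios of fold. The others were named by role after their values were seen. Alternatives were windows of 500 and 2000 bp, 1 TSS per gene, other overlap rules, stricter q, equal list lengths and other motif windows.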

Additional observations from a re-analysis of the deposited data

How the results depend on the processing

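No paired analysis was possible because each condition has 1 library, and for the same reason no replicate could be left out. Of 52 alternative values, 44 stayed within 1.5 times the count reported or within the interval of the median, 8 moved and 0 reversed. The counts of genes with an E2F1 peak and the median log2 ratio of fold stayed within these limits in every alternative tried, the latter from 0.68 to 0.76. The 5 genes with H3K27me3 under the control shRNA became 3 with a window of 500 bp, 3 at −log10 q of at least 2, 3 with the strongest regions in lists of equal length, and 2 at −log10 q of at least 5. At that last threshold the count under shE2F1 fell from 21 to 7 and the count only under shE2F1 from 16 to 5, by construction, since most of these regions have lower values. With midpoints in place of overlap, 1 gene was marked only under the control shRNA instead of 0. The E2F motif at the GSK126 summit was found at 10 genes in place of 27 when a further T was required before it, which is a stricter pattern. Requiring −log10 q of at least 2 under shE2F1 alone, also added after the data were seen, left 13 genes marked only there. Weak summits limit some ratios, with 15 to 41 fragments in both DMSO and GSK126 at ATR, FANCF, FANCM, NBN, RAD50 and TP53BP1. RAD54B had 35 in DMSO and 61 in GSK126, and RAD18 had 37 and 56.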
